A study of Mus musculus with 6 samples.

Results

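Lars2 and 8 further nuclear genes for mitochondrial aminoacyl-tRNA synthetases (Aars2, Ears2, Fars2, Hars2, Iars2, Mars2, Nars2 and Sars2) were followed in mouse cortical neurons grown on peptide scaffolds. The members were taken by gene symbol, matched to the Ensembl identifiers of the count files, and all 9 were found among 54232 listed genes. Lars2 was chosen by its measured CPM, which earlier results of these data showed lower on the scaffolds than in control, so its own differences are given as a description, without a test. The question was whether that difference was shared by the other synthetases of the mitochondrion.

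RNA was sequenced in 6 libraries of wildtype CD1 cortical neurons, CD1 being an outbred mouse stock, in 3 groups of 2. The PA + PS2 libraries carry the name IKVAV plus PEDOT-S, the PA libraries the name IKVAV and the control libraries the name PDL. IKVAV is a short peptide from laminin, PEDOT is a conducting polymer, and PDL is the usual short form of poly-D-lysine, a coating for neuron cultures. In the treatment field all 6 libraries, controls too, are marked peptide amphiphile, and the sources used here give no age, dose or culture time. Each group has a repeat 1 and a repeat 2, and since no label says that the repeats came from separate cultures or animals, the spread behind each p-value may be technical. Levels are CPM, counts relative to the library total after scaling by the trimmed mean of M values (TMM), with the SD over n = 2 libraries.

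An aminoacyl-tRNA synthetase joins an amino acid to its tRNA, and the mitochondrion uses a set of its own, encoded in the nucleus and imported, to translate the few proteins of its own genome. These enzymes fall into class I, which holds Lars2, Iars2, Mars2 and Ears2, and class II, which holds Aars2, Fars2, Hars2, Nars2 and Sars2. There is no separate mitochondrial glutaminyl enzyme: Ears2 loads glutamate on the glutamine tRNA and an amidotransferase built from Gatb, Gatc and Qrsl1 converts it. In human families, recessive variants in these genes cause disorders of tissues with a high energy demand, among them leukoencephalopathies, epilepsies and, for LARS2 and HARS2, Perrault syndrome with hearing loss and ovarian failure.

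The windows in front of 3 members are shown: Lars2, and Iars2 and Mars2 as the next most abundant by CPM. They come from RefSeq on GRCm38.p6 and run from 250 bases before to 30 bases after the annotated start, 5′ to 3′ on the strand of the gene. The Lars2 window is chr9:123366677-123366956 on the plus strand, that of Iars2 is chr1:185329372-185329651 on the minus strand and that of Mars2 is chr1:55236927-55237206 on the plus strand. Capitals mark the searched letters named after the sequences.
Lars2: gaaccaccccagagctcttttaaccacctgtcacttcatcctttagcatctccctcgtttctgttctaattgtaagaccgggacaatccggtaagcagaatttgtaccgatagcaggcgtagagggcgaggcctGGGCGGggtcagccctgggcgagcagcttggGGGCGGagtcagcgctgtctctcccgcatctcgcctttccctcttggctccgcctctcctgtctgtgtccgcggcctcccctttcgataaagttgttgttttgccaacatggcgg
Iars2: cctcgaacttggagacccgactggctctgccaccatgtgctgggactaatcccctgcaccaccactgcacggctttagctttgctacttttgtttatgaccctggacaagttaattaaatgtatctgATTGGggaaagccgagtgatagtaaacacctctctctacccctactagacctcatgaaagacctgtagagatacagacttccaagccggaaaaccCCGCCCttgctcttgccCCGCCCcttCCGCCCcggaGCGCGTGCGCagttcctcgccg
Mars2: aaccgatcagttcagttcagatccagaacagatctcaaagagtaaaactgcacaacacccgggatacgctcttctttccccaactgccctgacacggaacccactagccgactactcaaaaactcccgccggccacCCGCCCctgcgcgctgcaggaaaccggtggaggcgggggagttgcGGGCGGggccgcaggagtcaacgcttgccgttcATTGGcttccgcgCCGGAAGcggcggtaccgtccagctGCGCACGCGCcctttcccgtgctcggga

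The letters were searched on both strands of the 300 bases from 250 before to 50 after the start, for which 8 of the 9 members have a window. The SP1 box (GGGCGG) was found in 7 of 8 members and in 35.7% of all 32851 windows, and Lars2 held it in 2 places, beginning 116 and 85 bases before the start. The NRF1 letters (GCGCA and GCGC with any base between) were found in Iars2 and Mars2 alone among the members and in 4.60% of all windows. NRF1 is a transcription factor known for nuclear genes of mitochondrial proteins. The ETS core (CCGGAAG) was found in Mars2 and Sars2 and in 8.86% of all windows. The CCAAT box was found in 4 of 8 members and 37.4% of all windows, and the letters TATAAA in Aars2 alone and 13.6% of all windows. Neither the cyclic AMP element TGACGTCA nor the amino acid response letters TGATGNAAT were found in a member (1.79% and 0.965% of all windows). Apart from its SP1 boxes, the Lars2 window held none of the searched letters. Of that window 58.3% was G or C, against a median of 52.7% over all windows.

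Lars2 lies at chr9:123366927-123462666 on the plus strand of GRCm38 (ENSMUSG00000035202), and its main transcript has 21 exons and 3894 bases. It encodes the leucyl synthetase that charges both mitochondrial leucine tRNAs. Lars2 had 120.1 and 121 CPM in the PA + PS2 libraries (repeat 1 and repeat 2), 105 and 132 CPM in the PA libraries, and 178 and 164 CPM in the control libraries. All 4 scaffold libraries lay below both control libraries, and the PA + PS2 libraries lay between the PA libraries. The means were 120.4 ± 0.41 CPM in PA + PS2, 118 ± 19.5 CPM in PA and 171 ± 10.1 CPM in control (SD, n = 2 each). These levels rest on 3239 to 5977 counts per library.

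The fitted log2 fold change of Lars2 was -0.50 in PA + PS2 relative to control (SE 0.11, 95% interval -0.76 to -0.25), which is 0.705 of the control level. In PA relative to control it was -0.53 (SE 0.11, 95% interval -0.78 to -0.27), or 0.693 of the control level. Both comparisons use the same control libraries. Between PA + PS2 and PA the fitted difference was 0.02 (95% interval -0.23 to 0.28). Within repeat 1, Lars2 differed by -0.57 on the log2 scale in PA + PS2 and by -0.77 in PA relative to control, and within repeat 2 by -0.44 and -0.31. PA + PS2 minus PA was 0.20 in repeat 1 and -0.13 in repeat 2, so its sign differed between the repeats. The PA value leaned on 1 library more than the PA + PS2 value did: without PA repeat 2 the fitted log2 fold change in PA was -0.72, and without PA repeat 1 it was -0.37. In bulk RNA, fewer cells of a type and less RNA per cell cannot be told apart.

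**Figure D1:**
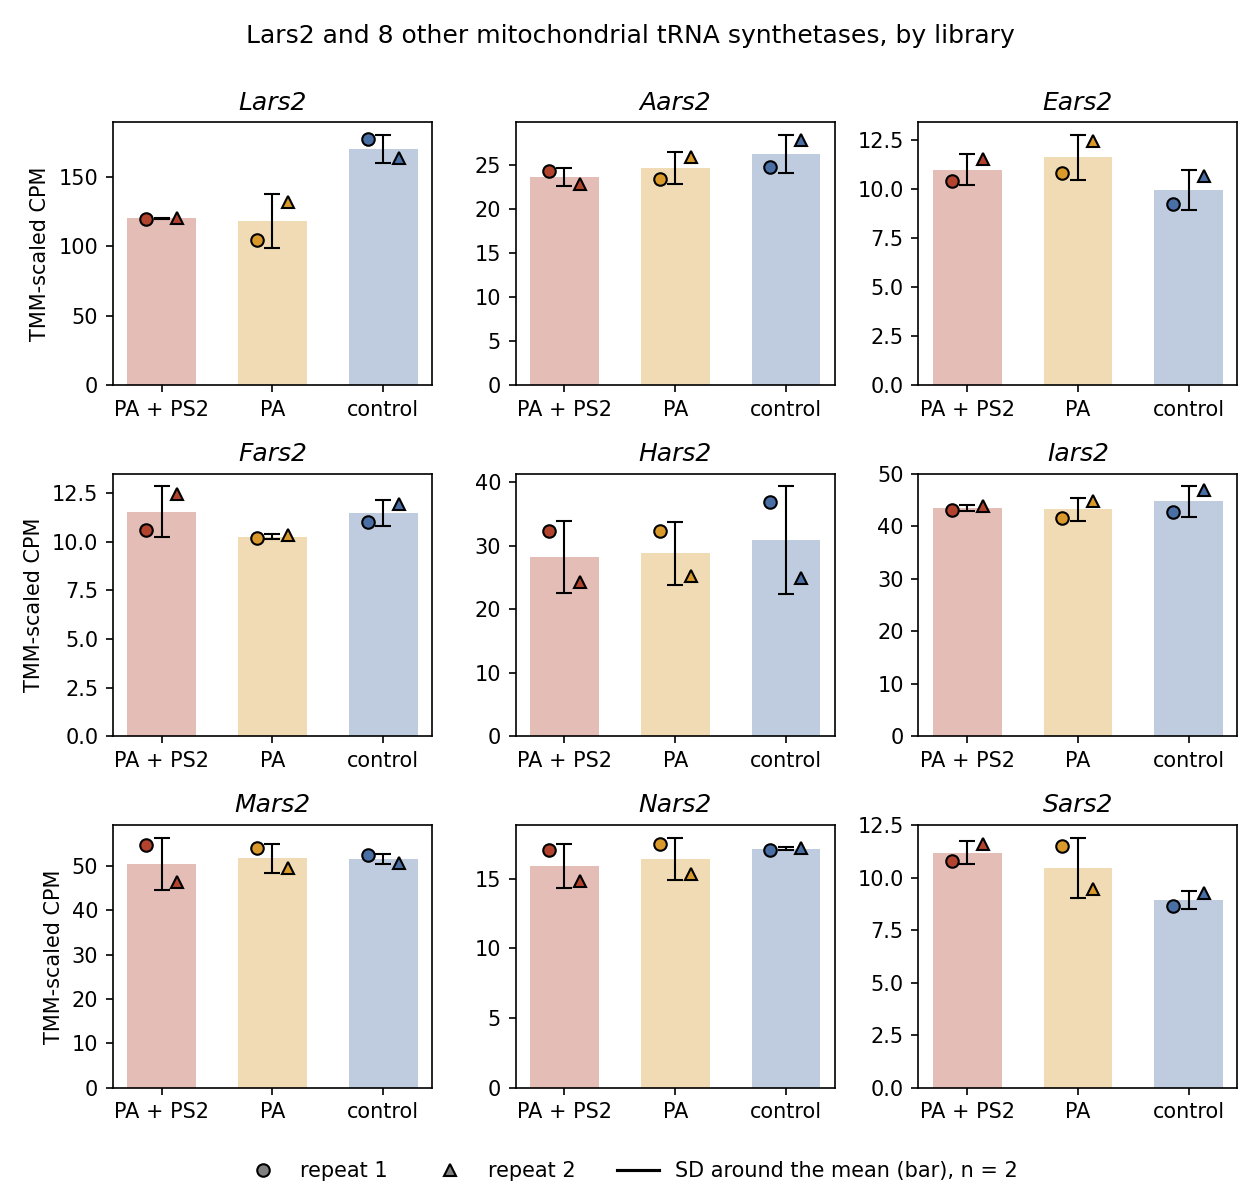
TMM-scaled CPM (vertical axes, starting at 0 and scaled per gene) of Lars2 and the 8 other members in PA + PS2, PA and control. Bars are means, error bars the SD over n = 2 libraries, circles repeat 1 and triangles repeat 2; the Lars2 libraries of both scaffold groups lie between 105 and 132 CPM, below the control libraries at 164 and 178 CPM.

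Of the other members of class I, Iars2 and Mars2 were at nearly the same level in all 3 groups. Iars2 (chr1:185284726-185329396, minus strand), the isoleucyl synthetase, had 43.1 and 43.9 CPM in PA + PS2, 41.6 and 44.7 CPM in PA, and 42.7 and 46.8 CPM in control. Its groups overlapped in every comparison, and its log2 fold change was -0.04 in PA + PS2 relative to control (95% interval -0.26 to 0.18) and -0.05 in PA (-0.27 to 0.17). Mars2 (chr1:55237177-55248470, plus strand), which charges the methionine tRNA used for both initiation and elongation, had 54.6 and 46.3 CPM in PA + PS2, 53.9 and 49.4 CPM in PA, and 52.3 and 50.7 CPM in control. Its groups overlapped too, with repeat 1 above repeat 2 in each group and log2 fold changes of -0.03 (-0.27 to 0.21) in PA + PS2 and 0.00 (-0.24 to 0.25) in PA. The lower end of each of these intervals lies above the fitted value of Lars2 in the same comparison, taken without its own interval.

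Ears2 (chr7:122037213-122067263, minus strand), the glutamyl synthetase, had 10.5 and 11.6 CPM in PA + PS2, 10.8 and 12.5 CPM in PA, and 9.26 and 10.7 CPM in control. Both PA libraries lay above both control libraries, by 0.22 on the log2 scale within each repeat, while the PA + PS2 libraries overlapped the control. The fitted value in PA was 0.22 (95% interval -0.17 to 0.62, edgeR adjusted p = 1.00). Ears2 was thus placed on the side opposite to Lars2, at a level where 311 to 359 counts stood behind each control value.

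Among the class II members, Aars2 and Nars2 had slightly lower levels in PA + PS2. Aars2 (chr17:45506841-45520843, plus strand), the alanyl synthetase, had 24.3 and 22.8 CPM in PA + PS2, 23.3 and 25.9 CPM in PA, and 24.7 and 27.8 CPM in control. Both PA + PS2 libraries lay below both control libraries, with a log2 fold change of -0.15 (95% interval -0.44 to 0.13, edgeR adjusted p = 0.937) and within-repeat differences of -0.02 and -0.28. Nars2 (chr7:96951505-97064758, plus strand), the asparaginyl synthetase, had 17.0 and 14.8 CPM in PA + PS2, 17.5 and 15.3 CPM in PA, and 17.1 and 17.2 CPM in control. Its PA + PS2 libraries also lay below the control libraries, by -0.11 on the fitted scale (-0.43 to 0.22, edgeR adjusted p = 0.984), but in repeat 1 the difference was too small to show in 2 decimals.

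Fars2 (chr13:36117412-36726280, plus strand), the phenylalanyl synthetase, had 10.6 and 12.5 CPM in PA + PS2, 10.2 and 10.4 CPM in PA, and 11.01 and 11.94 CPM in control. Its PA libraries were the lowest of the 6, at a log2 fold change of -0.16 relative to control (95% interval -0.54 to 0.21, edgeR adjusted p = 1.00), and its PA + PS2 libraries spanned the control range. Hars2 (chr18:36783008-36792562, plus strand), the histidyl synthetase, had 32.3 and 24.3 CPM in PA + PS2, 32.3 and 25.3 CPM in PA, and 36.9 and 24.9 CPM in control. Hars2 followed the repeat number and not the group: repeat 1 exceeded repeat 2 by 0.41, 0.35 and 0.57 on the log2 scale in PA + PS2, PA and control. Its 95% intervals were the widest of the 9 members in the comparisons with control, -0.67 to 0.41 in PA + PS2 and -0.64 to 0.44 in PA.

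Sars2 (chr7:28741992-28753871, plus strand), the seryl synthetase, had 10.8 and 11.6 CPM in PA + PS2, 11.5 and 9.46 CPM in PA, and 8.63 and 9.26 CPM in control. All 4 scaffold libraries lay above both control libraries, the reverse of Lars2. The log2 fold change was 0.32 in PA + PS2 (95% interval -0.08 to 0.72, edgeR adjusted p = 0.829) and 0.23 in PA (-0.17 to 0.63, edgeR adjusted p = 1.00). The within-repeat difference in PA was 0.41 in repeat 1 and 0.03 in repeat 2. Sars2 was the member with the fewest reads, down to 290 counts in control repeat 1.

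None of the 8 other members passed the test in any comparison, and nor did any gene of the whole table: edgeR's quasi-likelihood test called 0 of 17299 genes (0.0%) at an adjusted p under 0.05 in PA + PS2 against control, in PA against control and in PA + PS2 against PA. At an unadjusted p under 0.05 those comparisons held 1178, 103 and 1332 genes. With the repeat number as a block, edgeR called 121 genes (0.699%), 0 genes (0.0%) and 263 genes (1.52%), and DESeq2 called 130 (0.751%), 0 (0.0%) and 200 (1.16%), again with none of the 8 members among them. The median log2 fold change of the 8 members was -0.04 in PA + PS2 and -0.06 in PA relative to control, where the median over all genes tested was 0.01 in both, and it was -0.03 between PA + PS2 and PA, against 0.00 over all genes. In PA + PS2 against control, 2 of the 8 had both libraries below the control, where 17.1% of all genes did, and 1 had both above, where 16.6% did (33.6% in either direction). In PA against control the counts were 1 below (9.69% of all genes) and 2 above (12.1%, and 21.8% in either direction), and in PA + PS2 against PA they were 0 below (18.4%) and 1 above (16.7%, and 35.2% in either direction). Since these contrasts were used to choose Lars2, nothing is read from the counts.

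The interval of each member can be set against the value of Lars2. In PA + PS2 relative to control, the 95% intervals of 7 of the 8 other members did not reach the Lars2 value of -0.50, and Hars2 was the exception. In PA relative to control, 6 of 8 did not reach -0.53, and Fars2 and Hars2 did. The class was then widened to 7 further mitochondrial synthetases, to Gars and Kars, which serve cytosol and mitochondrion alike, and to the 3 amidotransferase genes, 20 genes without Lars2. Of these 20, 19 had intervals that did not reach the Lars2 value in PA + PS2 and 17 in PA, where Qrsl1 joined Fars2 and Hars2. The difference between Lars2 and the class was not tested, because Lars2 was picked for its value. The counts of intervals take that value as fixed, without its own interval, so nothing is read from them.

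**Figure D2:**
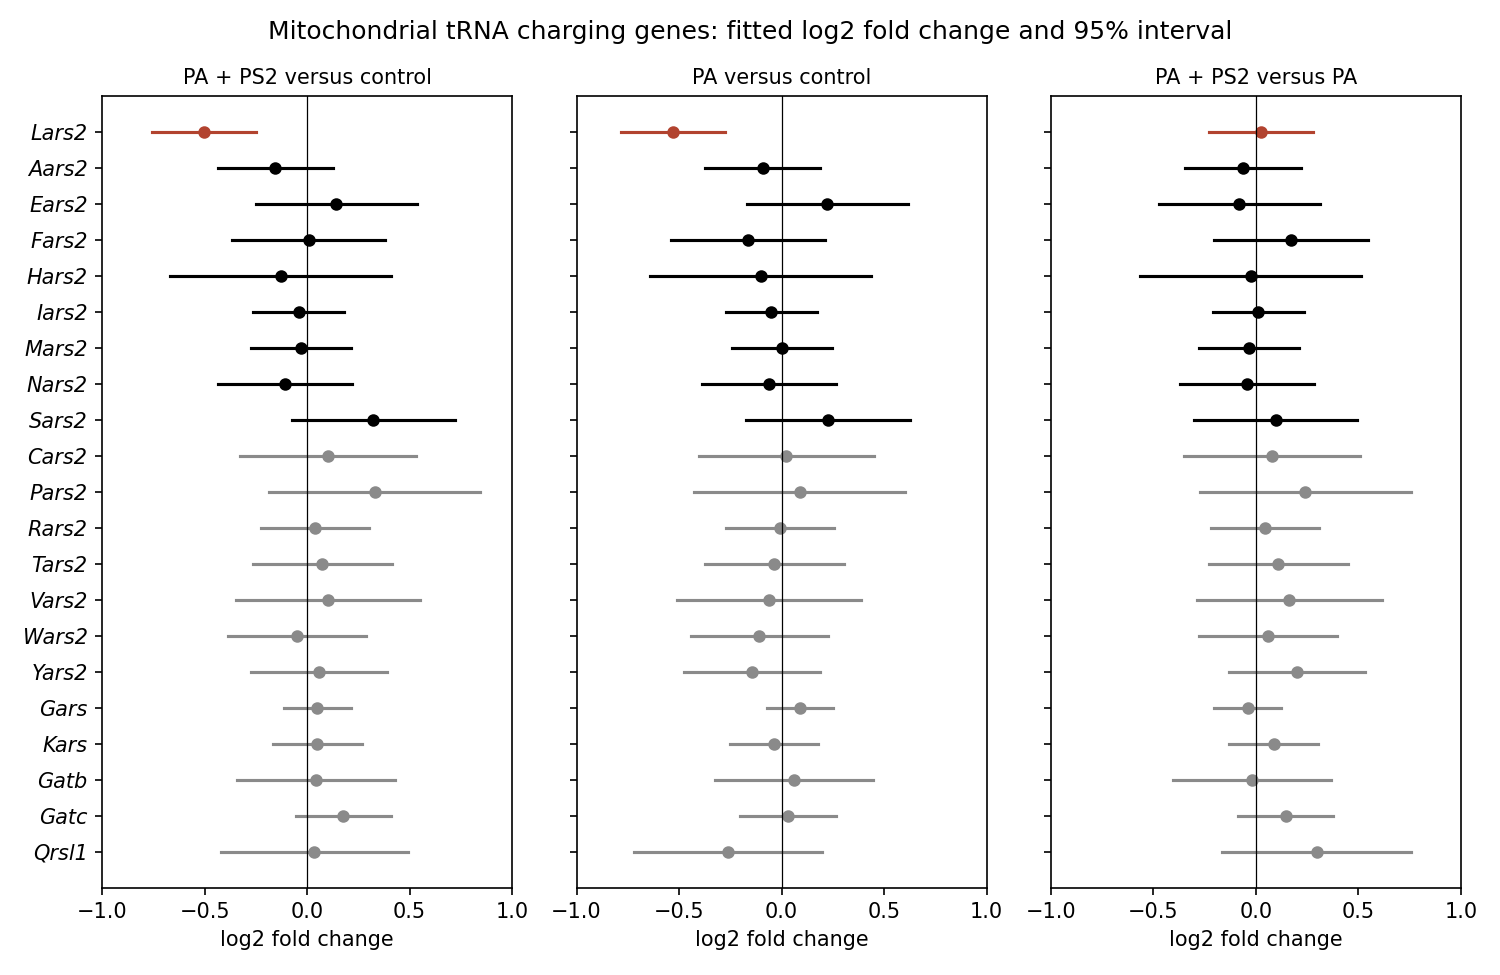
Fitted log2 fold change (points) and 95% interval (lines) of 21 mitochondrial tRNA charging genes in PA + PS2 versus control, PA versus control and PA + PS2 versus PA; Lars2 is red, the other 8 members black, the rest grey. Lars2 sits at -0.50 and -0.53 in the comparisons with control, left of the other 20 genes, and at 0.02 between PA + PS2 and PA.

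Lars2 had the lowest log2 fold change of the 21 genes in both comparisons with control, a description only, since it was picked for low values there. The next lowest was Aars2 at -0.15 in PA + PS2 and Qrsl1 at -0.26 in PA. None of the 20 passed edgeR's test in any comparison, and their median was 0.05 in PA + PS2, -0.04 in PA and 0.07 between PA + PS2 and PA. Pars2, the prolyl synthetase, had the highest value in PA + PS2, 0.33 (95% interval -0.19 to 0.84), with 7.42 and 10.2 CPM in PA + PS2, against 7.80 and 6.19 CPM in control, and its libraries overlapped. The steadiest was Rars2, the arginyl synthetase, whose 6 libraries lay between 22.1 and 23.9 CPM. Gars, the most abundant, had 305 and 325 CPM in PA + PS2, 321 and 326 CPM in PA, and 309 and 299.9 CPM in control, so its PA libraries were above the control by 0.09 on the fitted log2 scale (-0.07 to 0.25).

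Of the remaining genes of the class, Wars2 and Yars2, the tryptophanyl and tyrosyl synthetases, had both PA libraries below both control libraries, with fitted log2 values of -0.11 and -0.14 and intervals that include 0. Gatc had both PA + PS2 libraries above both control libraries, at 0.18 (95% interval -0.06 to 0.41). Cars2, Tars2, Vars2, Kars and Gatb overlapped the control in both comparisons. Qrsl1 had 11.2 and 10.1 CPM in PA + PS2, 9.07 and 8.26 CPM in PA, and 12.03 and 8.75 CPM in control, and its PA repeat 1 value lay within the control range. Over the 21 genes, 5 were higher and 5 lower in repeat 1 than in repeat 2 in all 3 groups. Lars2 was in neither set, since its repeat 1 minus repeat 2 difference was -0.01 in PA + PS2, -0.34 in PA and 0.12 in control.

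**Figure D3:**
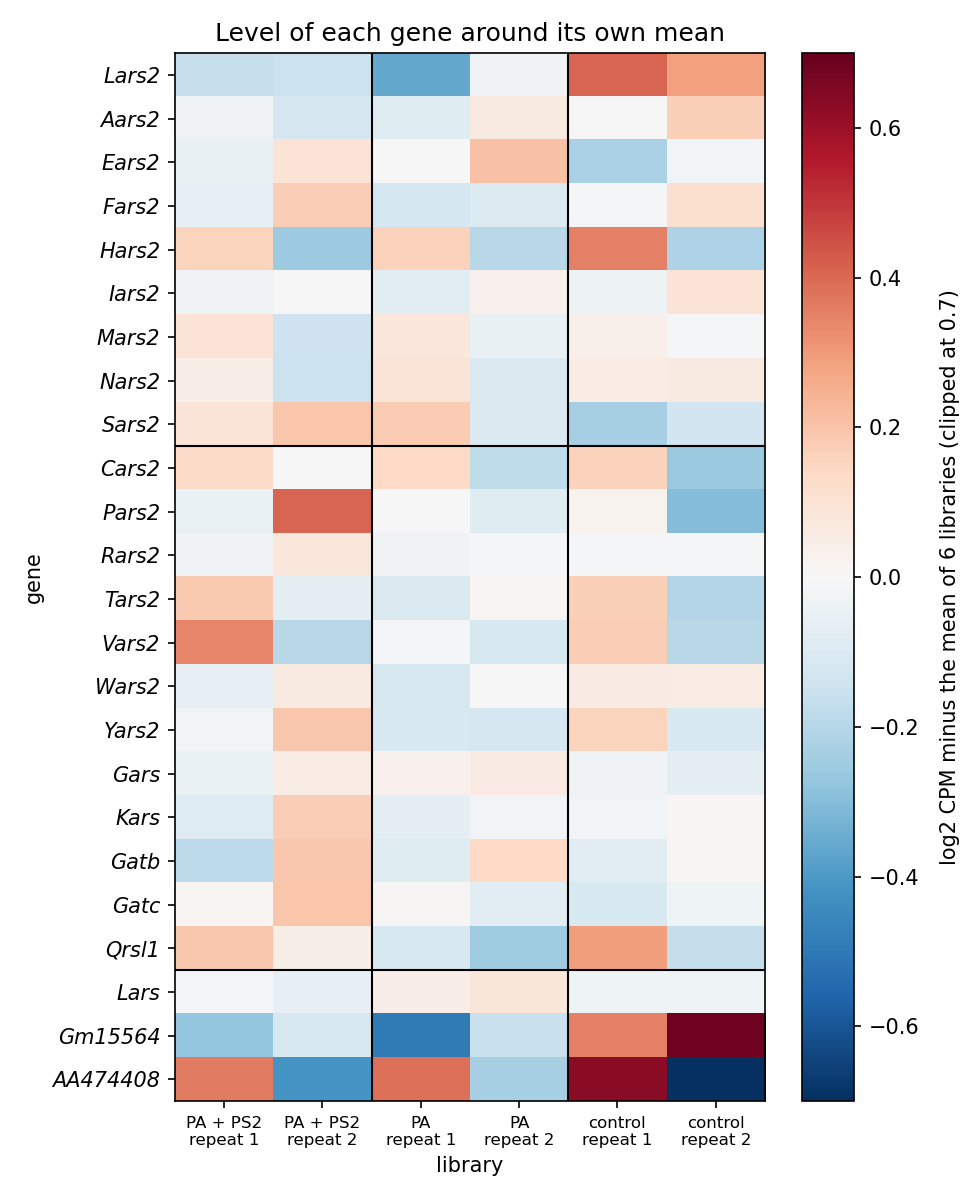
Log2 CPM of each gene (rows) minus its mean over the 6 libraries (columns, PA + PS2, PA and control, repeats 1 and 2); red is above and blue below the mean, with colours clipped at 0.7. Lars2 and Gm15564 are red in both control libraries and blue in the scaffold libraries, whereas Hars2 and AA474408 follow the repeat number.

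The place of Lars2 was also looked up among functional neighbours. The cytosolic leucyl synthetase Lars had 152 and 146 CPM in PA + PS2, 157 and 161 CPM in PA, and 149 and 149 CPM in control, so both PA libraries lay above the control and the PA + PS2 libraries on either side of it. Its log2 fold change was 0.00 in PA + PS2 (95% interval -0.16 to 0.16) and 0.10 in PA (-0.06 to 0.26). Among the 22 cytosolic synthetases and scaffold genes, medians were 0.00 in PA + PS2 and 0.06 in PA, the lowest values were -0.11 (Aimp2) and -0.10 (Vars), and none passed the test. Aars, Eprs and Nars, the most abundant of them, differed by 0.08, 0.08 and 0.10 in PA.

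Genes that act with the charged tRNA had medians near 0. Of 78 mitochondrial ribosomal protein genes 77 were tested, with medians of 0.05 in PA + PS2 and 0.00 in PA and lowest values of -0.37 (Mrps28) and -0.27 (Mrps34). The 12 mitochondrial translation factors had medians of 0.07 and 0.04, with 0.07 and 0.03 for Tufm, the elongation factor that carries charged tRNA to the ribosome. The 17 tRNA maturation genes had medians of 0.09 and 0.00, with 0.05 and 0.00 for Trnt1, which adds the terminal CCA. None of the tested genes of these 3 lists passed edgeR's test in either comparison, by a rule that called no gene at all (0.0%). The rows of both mitochondrial leucine tRNAs were under the filter on low counts, so the substrate of Lars2 was not compared.

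Mitochondrially encoded RNA was lower on the fitted scale as well, without passing the test. All 7 tested mitochondrial mRNAs were below 0, with medians of -0.37 in PA + PS2 and -0.17 in PA. All mitochondrially encoded rows together, mRNA, rRNA and tRNA, took 1.60% and 1.20% of counts in PA + PS2, 1.28% and 1.78% in PA, and 1.94% and 1.58% in control, which overlap. The small ribosomal RNA mt-Rnr1 had 394 and 282 CPM in PA + PS2, 332 and 366 CPM in PA, and 515 and 364 CPM in control, and its control repeat 2 value lay within the PA range. Whether Lars2 and mitochondrially encoded RNA differ together was not tested.

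Among abundant genes Lars2 was near the lower end, again only a description of a gene picked for low values in these comparisons. Of 4729 genes with a mean of at least 50 CPM it had the lowest log2 fold change in PA relative to control, just below CT010467.1 at -0.52. In PA + PS2 it was in place 32 of 4729, where the lowest was Fabp7, a fatty acid binding protein of glial progenitors, at -1.64. Over all 17299 genes tested, which include many with few counts, it was in place 746 in PA and 1711 in PA + PS2. Levels per kilobase used the pooled exons of all isoforms, 11089 bases for Lars2, whose main transcript has 3894. For Mars2 both lengths are 11294 bases, and the order by transcript length was not worked out. Per kilobase of pooled exon, Lars2 was also the most abundant member, at 12.3 CPM per kb over the 6 libraries. It was followed by Hars2 at 6.86, Aars2 at 5.20, Iars2 at 4.93 and Mars2 at 4.53 CPM per kb. Below them were Sars2 at 3.08, Nars2 at 2.37, Ears2 at 2.11 and Fars2 at 1.93 CPM per kb. The libraries of Lars2 did not overlap those of Hars2 on that scale, and those of Hars2 and Aars2, Aars2 and Iars2, Iars2 and Mars2, Nars2 and Ears2, and Ears2 and Fars2 overlapped. Lars2 held 37.2% and 39.1% of the summed CPM of the 9 members in PA + PS2, 34.2% and 40.6% in PA, and 46.8% and 45.1% in control.

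**Figure D4:**
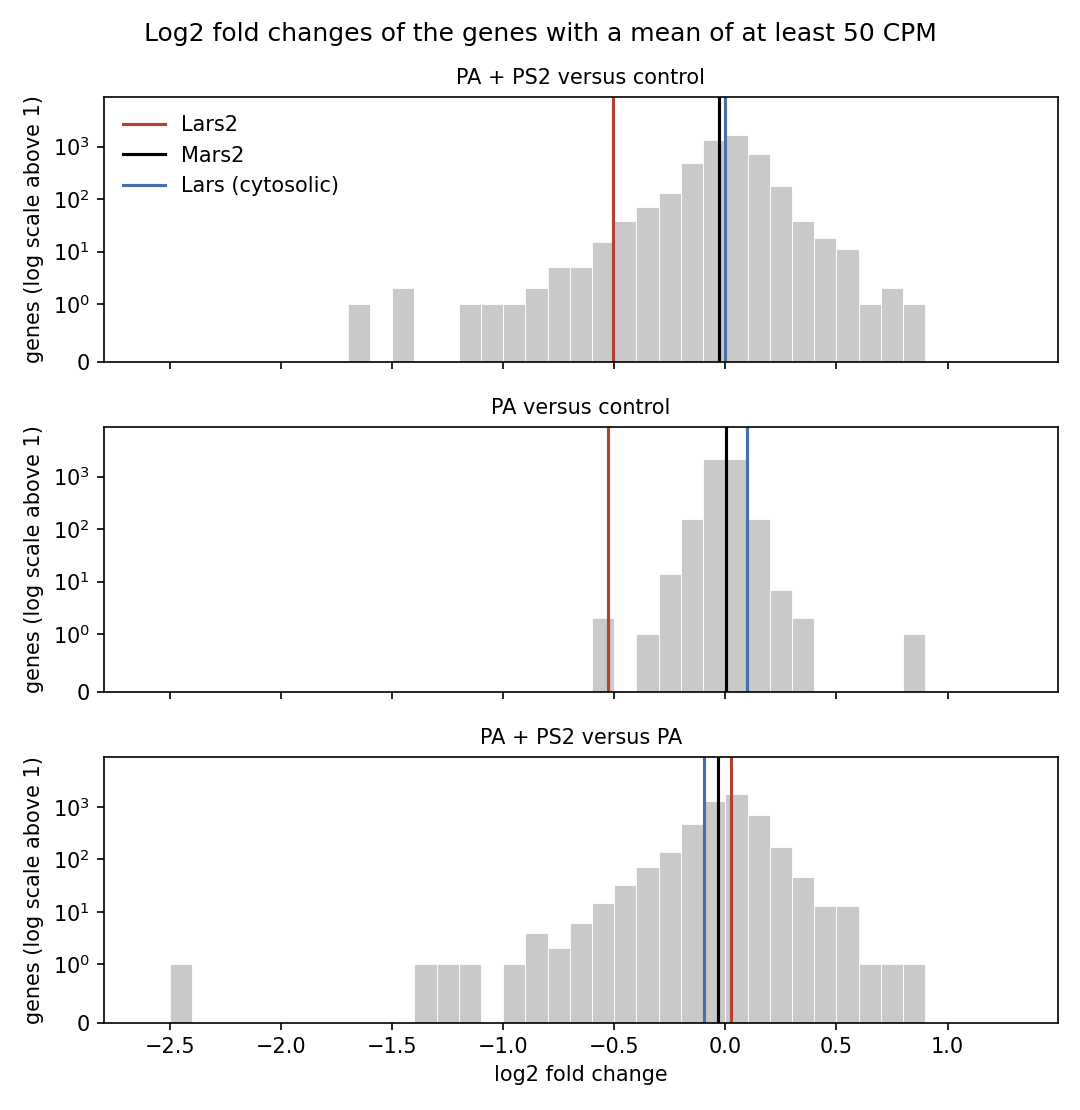
Number of genes (vertical axis, logarithmic above 1) by log2 fold change (horizontal axis, bins of 0.1) for the 4729 genes with a mean of at least 50 CPM in PA + PS2 versus control, PA versus control and PA + PS2 versus PA. The Lars2 line lies at -0.50 and -0.53 in the comparisons with control and at 0.02 in the last, and the lines of Mars2 and the cytosolic Lars lie between -0.10 and 0.10.

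The Lars2 row was then checked for reads that could belong elsewhere. The longest protein-coding transcript of each member was cut into overlapping words of 31 bases and compared with the transcripts of all other genes. Of the 3864 words of Lars2, 42 (1.09%) were shared, all in the 989-base 3′ untranslated region and on the same strand, and with 2 genes only. One is Gm15564, annotated as an antisense RNA at chr16:35966752-35983230 on the minus strand, which shares an exact run of 52 bases at positions 3278 to 3329 of the Lars2 transcript (chr9:123462048-123462099). The other is AA474408 (chr7:110057987-110061325, minus strand), which shares 26 words within positions 3172 to 3313, the longest run being 41 bases.

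Gm15564 was low and had the same order of groups as Lars2. It had 4.59 and 5.13 CPM in PA + PS2, 3.94 and 4.98 CPM in PA, and 7.08 and 8.87 CPM in control, from 122 to 298 counts per library. All 4 scaffold libraries lay below both control libraries, and the log2 fold changes of -0.72 in PA + PS2 (95% interval -1.26 to -0.17, edgeR adjusted p = 0.622) and -0.84 in PA (-1.38 to -0.30, edgeR adjusted p = 1.00) did not pass the test. Within repeats it differed by -0.62 and -0.78 in PA + PS2 and by -0.84 and -0.82 in PA. The ratio of Lars2 to Gm15564 was 26.2 and 23.5 in PA + PS2, 26.5 and 26.5 in PA, and 25.1 and 18.4 in control. The part of the shared run in either difference was not tested.

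**Figure D5:**
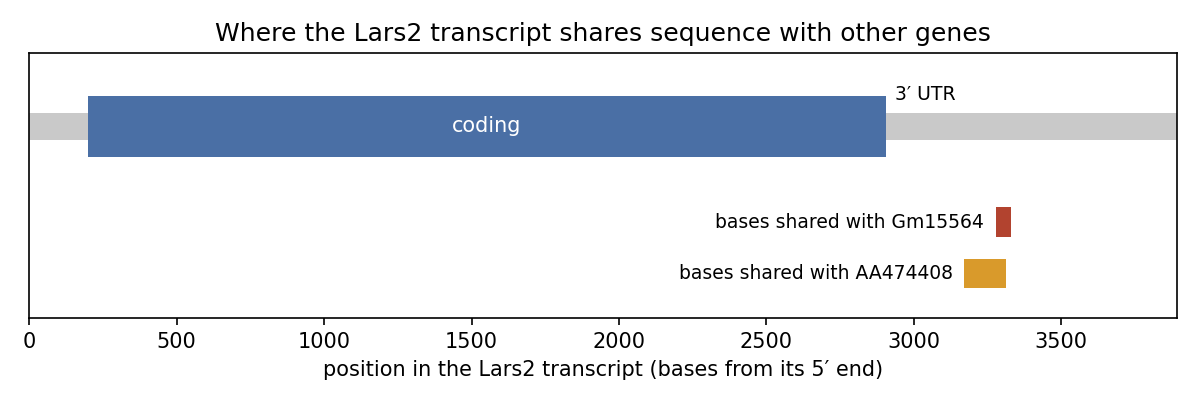
Map of the Lars2 transcript of 3894 bases (horizontal axis, bases from the 5′ end), with the coding part in blue and untranslated parts in grey. The bars below mark the stretch shared with Gm15564, at 3278 to 3329, and the span that holds the words shared with AA474408, at 3172 to 3313, both in the 3′ untranslated region.

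AA474408 did not follow Lars2. It had 1.34 and 0.781 CPM in PA + PS2, 1.36 and 0.88 CPM in PA, and 1.61 and 0.625 CPM in control, so that repeat 1 was above repeat 2 in each group and the groups overlapped. Gm26917, a long non-coding RNA whose row was listed with the rRNA-like genes, had 22.456 and 21.002 CPM in PA + PS2, 19.0 and 10.4 CPM in PA, and 29.7 and 20.3 CPM in control. Its PA libraries lay below the control, at -0.77 (95% interval -1.48 to -0.05, edgeR adjusted p = 1.00), and its PA + PS2 libraries overlapped it. Of the 12 rows found for the rRNA-like and structured RNA list, 5 were tested, among them Gm15564, Gm26917, mt-Rnr1 and mt-Rnr2. All 5 were below 0 in both comparisons with control, and none passed the test. Their medians were -0.38 in PA + PS2 and -0.33 in PA. Without the rows of this list and the mitochondrially encoded rows in the library totals, Lars2 was at -0.54 in PA relative to control. With them it was at -0.53. That fit is among the 21 alternatives whose ranges are given further below. The listed symbols Rn18s-rs5 and Rn45s matched no row, so nothing was left out under those names. Rows that count these RNAs under another name were not looked for, and any such row stayed in the totals.

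The other members share bases mainly with genes on the opposite strand, and since the sources used here give no strand setting for the counting, reads of such pairs cannot be told apart. Iars2 shares 2034 bases of its 3′ end with Rab3gap2, 36.8% of its words, and Rab3gap2 had 79.6 and 74.6 CPM in PA + PS2, 84.5 and 87.5 CPM in PA, and 80.9 and 77.5 CPM in control. Hars2 shares 195 bases with Hars, its cytosolic counterpart in head-to-head order, Nars2 284 bases with C230038L03Rik, Fars2 115 with Lyrm4 and 501 exon bases of other isoforms with Nrn1, and Ears2 89 with Ubfd1. None of the partners tested passed edgeR's test. Mars2 is a single exon with a 9473-base 3′ untranslated region, of which 16 words recur in many genes as a repeat. Aars2 and Sars2 shared no word with another gene.

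Genes next to Lars2 on chromosome 9 did not show its pattern. Upstream, Tmem158 had 63.5 and 65.0 CPM in PA + PS2, 54.0 and 56.7 CPM in PA, and 51.1 and 59.9 CPM in control. Clec3b was low, at 0.863 to 1.40 CPM over all libraries. It lay above the control within each repeat, by 0.53 and 0.59 on the log2 scale in PA + PS2 and 0.45 and 0.62 in PA. Downstream, Limd1 had 4.68 and 5.68 CPM in PA + PS2, 6.62 and 9.18 CPM in PA, and 6.40 and 8.16 CPM in control. Limd1, which encodes a LIM domain protein, was thus below the control in PA + PS2 (-0.49, 95% interval -1.06 to 0.08, edgeR adjusted p = 0.793) and overlapped it in PA. Sacm1l, a phosphoinositide phosphatase, lay between 39.6 and 44.1 CPM in all libraries.

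The 8 genes whose centred log2 CPM was nearest to that of Lars2 over the 6 libraries, among 10775 with a mean of at least 5 CPM, were D430020J02Rik, Zbtb8os, Ptrhd1, Chodl, Gpx4-ps2, Relt, Toe1 and Htr5a. Their root mean square distances were 0.11 to 0.15 on the log2 scale, with Pearson's r of 0.82 to 0.93, and all 6 points share library depth and repeat number. The nearest member was Aars2, in place 253 (distance 0.22, r 0.64), and the farthest was Sars2, in place 10116 (r -0.92). Gm15564, which shares a run of bases with Lars2, was nearer than Aars2, at a distance of 0.18 (r 0.92). Gm26917 was at 0.44 (r 0.34).

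The neuron label held in all libraries. Map2 was at 2163 to 2439 CPM and Tubb3 at 1632 to 1929 CPM, and the 7 neuron markers summed to 6561 to 7009 CPM in PA + PS2, 6591 to 6799.9 CPM in PA and 6583 to 7010.4 CPM in control. Microglia markers (6 genes) summed to 2.96 to 5.08 CPM over all libraries. Endothelial markers (5 genes) summed to 5.06 and 4.61 CPM in PA + PS2, 10.3 and 6.15 CPM in PA, and 8.84 and 7.17 CPM in control. Fibroblast and mural markers (8 genes) summed to 98.6 and 39.4 CPM in PA + PS2, 169.8 and 96.3 CPM in PA, and 134 and 153 CPM in control. Like Lars2, both lists lay below the control in PA + PS2, whereas in PA they overlapped it. Oligodendrocyte markers (7 genes) summed to 74.2 and 107 CPM in PA + PS2, 57.6 and 47.6 CPM in PA, and 44.4 and 44.8 CPM in control, so that, opposite to Lars2, both scaffold groups lay above the control. Precursor markers (4 genes) summed to 7.45 and 5.68 CPM in PA + PS2, 23.2 and 119 CPM in PA, and 32.1 and 78.4 CPM in control. The sums of cycling, astrocyte and progenitor markers were likewise lower in PA + PS2 than in control, while in PA they overlapped the control. Not every marker followed its sum. In PA + PS2 relative to control, 2 of 8 astrocyte markers were above 0, 1 of them at a log2 fold change of 2.97. So were 1 of 6 progenitor markers and, at 0.05, 1 of 8 fibroblast and mural markers. The part of other cells in the Lars2 difference was not tested.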

How the data were processed

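RNA was measured by sequencing in 6 libraries, 2 in each of PA + PS2, PA and control, grouped by their titles. Per the labels' protocols, an RNeasy micro kit gave the RNA and a TruSeq Total RNA kit the libraries; the molecule field says polyadenylated RNA. The authors deposited 1 file of unnormalized counts for each library, with Ensembl gene identifiers. Per the submitters' processing notes, mm10, DESeq2 1.14.1, HTSeq 2.0.2, STAR 2.7.5 and cutadapt 4.2 were used; the sources used here give no roles, settings, strand or annotation release.

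Library totals ran from 30714311 to 33923681 counts, so 1 CPM stands for 30.7 to 33.9 counts before TMM scaling, and precision beyond counting error comes from 2 libraries a group. Libraries of 1 group differed by more than counting noise (chi-square 16.1 to 23.4 per degree of freedom), so each was counted once. The test was that of edgeR 4.0.16 under R 4.3.3 (robust quasi-likelihood F test, TMM, filterByExpr, all 6 libraries in 1 model with 3 residual degrees of freedom), which left 17299 genes with Benjamini-Hochberg adjustment over all of them at 0.05. The script was tested on simulated data. Centred levels used log2 CPM with a prior count of 2. Loci and transcripts are those of GENCODE M21 on GRCm38, the assembly of mm10.

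Whether repeat numbers pair the libraries was read from the data, since the labels name no shared litter, batch or day. Repeat 1 minus repeat 2 differences correlated over genes at 0.36 between PA + PS2 and control, 0.35 between PA and control and 0.21 between PA + PS2 and PA, so a fit with the repeat as a block (2 residual degrees of freedom) stands beside the counts it changed. Library names carry T1 in repeat 1 and differing T numbers in repeat 2. The block brought the biological coefficient of variation to 9.57%, against 16.7% without it.

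The members, lists and markers were chosen with earlier results of these data known. Named were the 9 members, the widened class, of other lists those past the threshold or the most abundant, rRNA-like rows of at least 1 CPM, the nearest neighbours of Lars2, overlapping genes and the 8 genes most like Lars2; the genes named at the ends of a ranking, and AA474408 and the Gm15564 overlap, were picked after their values were seen. Alternatives were other scalings and filters, DESeq2 1.42.0, the block, only the 2 groups compared, and leaving out each library with and without the block; DESeq2 with the block was added after seeing the data. Left out were 2 listed symbols that matched 2 rows each, and 1 gene of the widened class is not reported here.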

Additional observations from a re-analysis of the deposited data

How the results depend on the processing

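The Lars2 log2 fold change kept its sign under all 21 alternatives in both comparisons with control, at -0.65 to -0.36 in PA + PS2 and -0.75 to -0.34 in PA, and it changed sign between PA + PS2 and PA (-0.16 to 0.24). All 3 ranges are those of leaving out 1 library. No alternative called any of the 8 other members or of the 20 class genes. The number of genes called depended on the setting. In PA + PS2 against control it was 121 with the replicate block, 425 with no filter on low counts, 130 with DESeq2 and 279 with DESeq2 and the block. In PA + PS2 against PA it was 263, 501, 200 and 364. In PA against control it was 2 with no filter, Gm26917 among them, and 1 with DESeq2 and the block. Leaving out 1 library, with or without the block, gave 0 to 942 genes in PA + PS2 against control, 0 to 1021 in PA + PS2 against PA and 0 to 35 in PA against control. The cause was not tested.

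The median of the 8 other members ran from -0.095 to 0.025 in PA + PS2 against control, from -0.076 to 0.036 in PA against control and from -0.062 to 0.046 in PA + PS2 against PA when 1 library was left out. Of 504 values of single members, 50 changed sign and none was called. Mars2 in PA, whose value rounds to 0.00, was -0.0036 with RLE size factors and with DESeq2, -0.0079 without rRNA-like, structured and mitochondrial rows, -0.0067 with no filter, -0.0069 with at least 50 counts in 2 libraries and -0.0051 with DESeq2 and the block. Fars2 in PA + PS2 was -0.0010 with at least 50 counts. The other sign changes came with 1 library left out. In PA + PS2 against control these ran from -0.11 to 0.11 (Fars2), -0.38 to 0.18 (Hars2), -0.11 to 0.027 (Iars2) and -0.16 to 0.083 (Mars2). In PA against control they ran from -0.36 to 0.21 (Hars2), -0.12 to 0.0098 (Iars2), -0.066 to 0.064 (Mars2) and -0.17 to 0.032 (Nars2). In PA + PS2 against PA they ran from -0.18 to 0.063 (Aars2), -0.18 to 0.032 (Ears2), -0.24 to 0.16 (Hars2), -0.038 to 0.070 (Iars2), -0.15 to 0.080 (Mars2), -0.14 to 0.055 (Nars2) and -0.084 to 0.29 (Sars2). A lone library left in a group is assumed to vary like the others, and 2 libraries a group limit what the intervals can show.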

Other observations

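The ATF4 list holds genes of the amino acid response, among them genes of amino acid synthesis and import. It also holds transcription factors such as Atf4 and secreted factors such as Gdf15. This list was looked at beside the synthetases. Of its 20 tested genes, 11 were above 0 on the fitted log2 scale in PA + PS2 relative to control, 17 in PA relative to control and 6 in PA + PS2 relative to PA, with medians of 0.01, 0.17 and -0.13, and none passed edgeR's test. With the repeat number as a block, Phgdh and Psat1 passed in PA + PS2 relative to PA, where 1.52% of all genes did. Phgdh, the entry enzyme of serine synthesis, had 4.33 and 5.23 CPM in PA + PS2, 8.10 and 14.9 CPM in PA, and 6.07 and 10.2 CPM in control, and fell by 1.21 on the log2 scale in PA + PS2 relative to PA (edgeR with the block, adjusted p = 0.0102; adjusted p = 0.432 without it). Psat1, a later enzyme of the same pathway, had 84.7 and 93.5 CPM in PA + PS2, 108 and 128 CPM in PA, and 97.2 and 113 CPM in control, and fell by 0.40 (edgeR with the block, adjusted p = 0.0175; adjusted p = 0.430 without it). Several marker lists of other cells were lower in the same comparison. With the block, edgeR called 3 of 8 astrocyte markers lower in PA + PS2 than in PA (list median -1.55). It also called lower 2 of 6 progenitor markers (-0.46) and 4 of 6 cycling cell markers (-2.13). The same held for 1 of 4 oligodendrocyte precursor markers (-2.90) and 2 of 8 fibroblast and mural markers (-0.91). In the astrocyte and progenitor lists, 1 marker each was above 0. Oligodendrocyte markers went the other way, with 7 of 7 above 0, a median of 1.57 and 1 called higher. The part of these cells in the Phgdh and Psat1 values was not tested. Atf4 itself and Asns differed by 0.05 and -0.14 in that comparison.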
